A study of Mus musculus with 4 samples.

Results

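The miR-29 family of the mouse consists of 3 guide strands, miR-29a-3p, miR-29b-3p and miR-29c-3p, which are cut from 4 hairpins. They were examined here together with miR-29b-1-5p and miR-29b-2-5p, the opposite strands that tell the hairpins mir-29b-1 and mir-29b-2 apart. These 5 of the 1979 mature miRNAs in the table (mmu-miR-29a-3p, mmu-miR-29b-3p, mmu-miR-29c-3p, mmu-miR-29b-1-5p and mmu-miR-29b-2-5p, written without mmu from here on) were picked by name and not by a threshold on their values. Earlier results of these data were known when they were chosen. miR-29b-3p is listed on 2 lines, 1 for each of its hairpins, and the line with the higher summed count, that of mir-29b-2, stands for it below unless both lines are named.

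The study sequenced small RNA of resting bone marrow-derived macrophages (BMDMs). Wild-type mice gave 2 libraries, called WT A and WT B, which the study's notes describe as biological replicate cultures. The KO library came from mice without mir-146a, and the 3′F library from homozygotes for an allele that exchanges the strands of the miR-146a hairpin over the 3′ part of the mature miRNA. All mice were a 129/B6 mix of 6 to 7 months, and their marrow was plated at 85000 cells per cm2, grown for 8 to 9 days with M-CSF at 10 ng/ml and then kept for 16 h in medium without LPS. The labels give 3 mice for each genotype without saying whether a library pools them, and each mutant line was derived from targeted V6.5 embryonic stem cells, backcrossed to C57BL6/J and bred as a colony of its own.

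miRNAs guide Argonaute proteins to mRNAs mainly through the seed, bases 2 to 8, and strands with the same seed are grouped as a family because they can recognize many of the same sites. Well-studied targets of miR-29 include mRNAs for collagens and other matrix proteins, for the DNA methyltransferases Dnmt3a and Dnmt3b, for the Tet enzymes and for the survival factor Mcl1, and in immune cells those for interferon gamma and T-bet. The 3′ end of miR-29b carries a short motif known to direct it to the nucleus. None of these targets was measured in the small RNA libraries.

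The sequences are shown because the guide strands differ only outside the seed, by few bases, and reads have to be told apart by those. RefSeq (GRCm38.p6) gave the strands of all 4 hairpins, 7 in number, and the capitals mark bases 2 to 8.
miR-29a-3p: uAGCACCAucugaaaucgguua
miR-29b-3p: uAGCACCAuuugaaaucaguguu
miR-29c-3p: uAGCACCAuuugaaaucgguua
miR-29b-1-5p: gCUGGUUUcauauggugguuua
miR-29b-2-5p: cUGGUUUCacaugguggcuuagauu
miR-29a-5p: aCUGAUUUcuuuugguguucag
miR-29c-5p: uGACCGAUuucuccugguguuc

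The 3 guide strands shared the seed AGCACCA, and no other mature miRNA of the table with a sequence in RefSeq (1679 of 1979 matched by name) had it. In the changes that follow, positions start from 1 at the 5′ base of the first strand, whose base is given first. From miR-29a-3p to miR-29c-3p the only change was C10U. From miR-29c-3p to miR-29b-3p the changes were G18A, U21G and A22U, and miR-29b-3p was 1 base longer, so the first 17 bases of these strands were the same. The motif AGUGUU, searched on the strand itself, began at base 18 of miR-29b-3p and was not in the other guide strands. It was in 12 of the 1679 mature sequences (0.715%). The 5p strands of the miR-29b hairpins overlapped over 21 bases when miR-29b-2-5p was set 1 base in from the start of miR-29b-1-5p, and there the changes from miR-29b-1-5p were U11C and U19C.

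The hairpins lie in pairs on different chromosomes. In the following RefSeq hairpins (GRCm38.p6), the capitals mark the mature strands, the 5p strand first.
Mir29a: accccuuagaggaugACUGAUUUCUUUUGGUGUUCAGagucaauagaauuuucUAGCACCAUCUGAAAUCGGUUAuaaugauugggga
Mir29b-1: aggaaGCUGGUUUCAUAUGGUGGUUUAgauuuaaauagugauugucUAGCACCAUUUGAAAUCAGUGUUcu
Mir29b-2: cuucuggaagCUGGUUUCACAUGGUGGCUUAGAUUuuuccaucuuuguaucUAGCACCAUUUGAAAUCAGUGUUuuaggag
Mir29c: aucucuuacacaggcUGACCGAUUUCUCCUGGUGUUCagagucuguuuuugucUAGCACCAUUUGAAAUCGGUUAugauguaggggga

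Mir29a lies at chr6:31062660-31062747 and Mir29b-1 at chr6:31063023-31063093, both on the minus strand with 275 bases between them. In the GENCODE vM21 annotation of GRCm38, Mir29b-1 is within an exon of the lincRNA gene Gm27019 on the same strand, and Mir29a is in no other annotated gene, 345 bp from Gm27019. Mir29b-2 lies at chr1:195037040-195037120 and Mir29c at chr1:195037547-195037634, both on the plus strand with 426 bases between them. Both are in exons of A330023F24Rik, a noncoding gene on the same strand, and also overlap an exon of a transcript of Cd46 on the opposite strand.

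The library totals ranged from 11410940 to 19087640 counts, and levels are given in RPM, the deposited count of a line per 1000000 counts of its library. A log2 ratio is log2(RPM + 1) minus its mean over the WT pair, a scale on which the change of low miRNAs is understated. Since KO and 3′F are single libraries, no replicate checks how far they lay from WT, and no test was run. All intervals are at 95% and cover counting error only. As a check of the labels, miR-146a-5p was at 6253 RPM (WT A) and 5485 RPM (WT B) and at 13.4 RPM (KO) and 6.64 RPM (3′F). This does not tell KO from 3′F. The miRNA of the 3′F allele does, with a log2 ratio to WT of 0 in KO and 3.53 in 3′F. All 4 myeloid marker miRNAs had a mean of at least 10 RPM, and their summed level was between 2822 and 3639 RPM. None of 5 stromal and 1 lymphoid marker reached that mean. The stromal sum was 10.5 RPM (WT A), 10.7 (WT B), 7.51 (KO) and 7.19 (3′F), and the lymphoid marker was at 2.93, 2.80, 2.51 and 1.54 RPM. An endothelial list of 2, with 1 at that mean, summed to 11.07 RPM (WT A), 10.17 (WT B), 13.99 (KO) and 11.05 (3′F). Of the stromal list, miR-145a-5p was at 0 in KO and 3′F and at only 0.18 RPM in each WT library, miR-143-3p was at 4.74 and 4.91 RPM in WT, 2.10 in KO and 2.22 in 3′F, and miR-199a-3p was at 3.18 and 3.71 RPM in WT, 3.63 in KO and 3.21 in 3′F. An erythroid list, with 2 of 3 miRNAs at that mean, summed to 93.2 and 94.1 RPM in WT, 36.5 in KO and 43.3 in 3′F.

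Within the family, miR-29a-3p was by far the most frequent strand. WT A held 1288 RPM, WT B 1381, KO 1379 and 3′F 1221, from rank 47 to rank 53 among mature miRNAs. The WT mean was 1334 ± 65.3 RPM (SD, n = 2 cultures). The KO library lay between the WT libraries and 3′F lay below both.

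miR-29b-3p, the member with the nuclear import motif, came next: WT A held 40.1 RPM, WT B 31.7, KO 25.4 and 3′F 24.6. With both of its lines added it was at 79.97, 63.3, 50.6 and 49.2 RPM in the same order. Both mutant libraries were below both WT libraries, and the WT cultures themselves differed.

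For miR-29c-3p, WT A held 9.78 RPM, WT B 9.84, KO 10.1 and 3′F 8.62, from 167, 112.33, 192.17 and 139.67 counts. KO was just above both WT libraries and 3′F below both, but the counting intervals of all 4 libraries overlapped, from 7.31 to 10.2 RPM in 3′F to 8.74 to 11.6 RPM in KO.

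The opposite strands of the mir-29b hairpins were rarer. miR-29b-1-5p was at 6.33 RPM (WT A), 8.33 (WT B), 6.84 (KO) and 6.61 (3′F), and both mutants lay between the WT libraries. miR-29b-2-5p was at 3.92, 4.47, 4.66 and 3.64 RPM, with KO above and 3′F below both WT libraries, all within overlapping counting intervals. By WT mean the order of the members was miR-29a-3p (1334 RPM), miR-29b-3p (35.9 ± 5.91 on the mir-29b-2 line), miR-29c-3p (9.81 ± 0.0424), miR-29b-1-5p (7.33 ± 1.41) and miR-29b-2-5p (4.195 ± 0.389; SD, n = 2 cultures). Over the 4 libraries, the values of neighbors in this order did not overlap. The closest were the lowest value of miR-29c-3p, 8.62 RPM, and the highest of miR-29b-1-5p, 8.33 RPM, whose counting intervals did overlap. The study's notes point out that linker ligation varies with the sequence of an RNA, so levels of different strands need not be their true proportions.

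**Figure D1:**
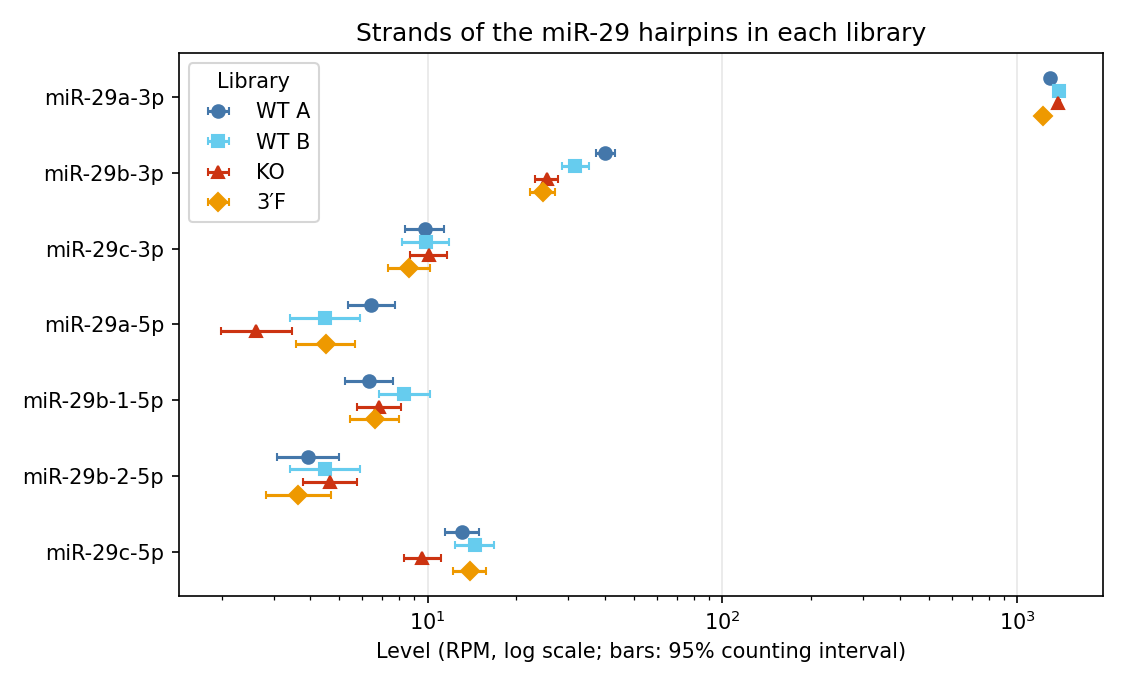
Level of each strand of the miR-29 hairpins in RPM (log scale) in WT A, WT B, KO and 3′F, with 95% counting intervals. miR-29a-3p is at 1221 RPM or more in every library, miR-29b-3p is lowest in KO and 3′F, and KO is the lowest library for miR-29a-5p and miR-29c-5p.

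By their summed reads, the 3 guide strands ranked from 31 to 33 among the seed families with reads, of which a library held from 635 to 673. Their sum was 1378 RPM (WT A), 1454 (WT B), 1439 (KO) and 1279 (3′F). KO lay between the WT libraries and 3′F below both, with log2 ratios to WT of 0.024 and -0.15, against a difference of 0.077 between WT B and WT A. With DESeq2's size factors KO lay above both WT libraries. miR-29a-3p made up nearly all of this sum.

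miR-29b-3p had a log2 ratio of -0.48 (KO) and -0.52 (3′F), while WT B was lower than WT A by 0.33 on the same scale (-0.33). KO was at 0.799 times WT B and 0.633 times WT A, and 3′F at 0.776 and 0.614 times. The deficit therefore depended on the WT library it was set against. With WT B alone the log2 ratios were -0.31 and -0.35, about the size of the difference between the WT libraries, and with WT A alone they were -0.64 and -0.68. The mutant libraries carry the letter A, as WT A does, but whether it marks cultures made together is not stated. The counting interval of WT B, 28.6 to 35.1 RPM, did not overlap those of KO, 23.2 to 27.7, and 3′F, 22.3 to 27.1. Nor did it overlap that of WT A, 37.2 to 43.2, so the WT cultures were set apart in the same way. Under each of 3 other scalings miR-29b-3p also lay below both WT libraries in both mutants.

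For the other members, the log2 ratios were smaller. They were 0.048 in KO and -0.13 in 3′F for miR-29a-3p, 0.034 and -0.17 for miR-29c-3p, -0.077 and -0.12 for miR-29b-1-5p, and 0.13 and -0.16 for miR-29b-2-5p. The median over the 439 miRNAs with a mean of at least 1 RPM, which include all 5 members, was -0.0032 in KO and -0.076 in 3′F. In 3′F, these 4 members lay between -0.17 and -0.12, within the middle range of all miRNAs there (quartiles -0.23 and 0.10). The side of miR-29a-3p in KO depended on the scaling, since it lay above both WT libraries under the 3 other scalings, and miR-29c-3p fell between them with edgeR's TMM. By side, 1 of the 5 members lay below both WT libraries in KO, against 40.5% of the 439 miRNAs. Another 2 lay above both (34.6% of the 439) and 2 between them (24.8%). In 3′F, 4 of 5 lay below both (42.6%) and 1 between them (31.2%).

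A call needed a level that differed 2-fold or more, in 1 direction, from WT A and from WT B alike. Of the 439 miRNAs, 17 were called in KO (3.87%) and 3 in 3′F (0.683%), and 0 of the 5 members were called in either. These calls include the altered locus itself, with miR-146a-5p in both mutants and the 3′F miRNA (log2 ratio 3.53) in 3′F. Between WT B and WT A, 4 of the 439 (0.911%) differed 2-fold. Among the 251 miRNAs with a mean of at least 10 RPM, 9 were called in KO (3.59%) and 2 in 3′F (0.797%), and miR-29a-3p and miR-29b-3p were the 2 members in that set. At 1.5-fold, 0 of the 5 members were called as well, against 10.7% of the 439 in KO and 2.51% in 3′F. Counted from the lowest ratio, miR-29b-3p had rank 29 of 251 in KO and rank 13 in 3′F. Of the 251, 69 (27.5%) lay below both WT libraries in both mutants, as miR-29b-3p did. KO and 3′F are compared with the same WT libraries. Between WT A and WT B, 56 of the 251 differed by more than miR-29b-3p did.

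**Figure D2:**
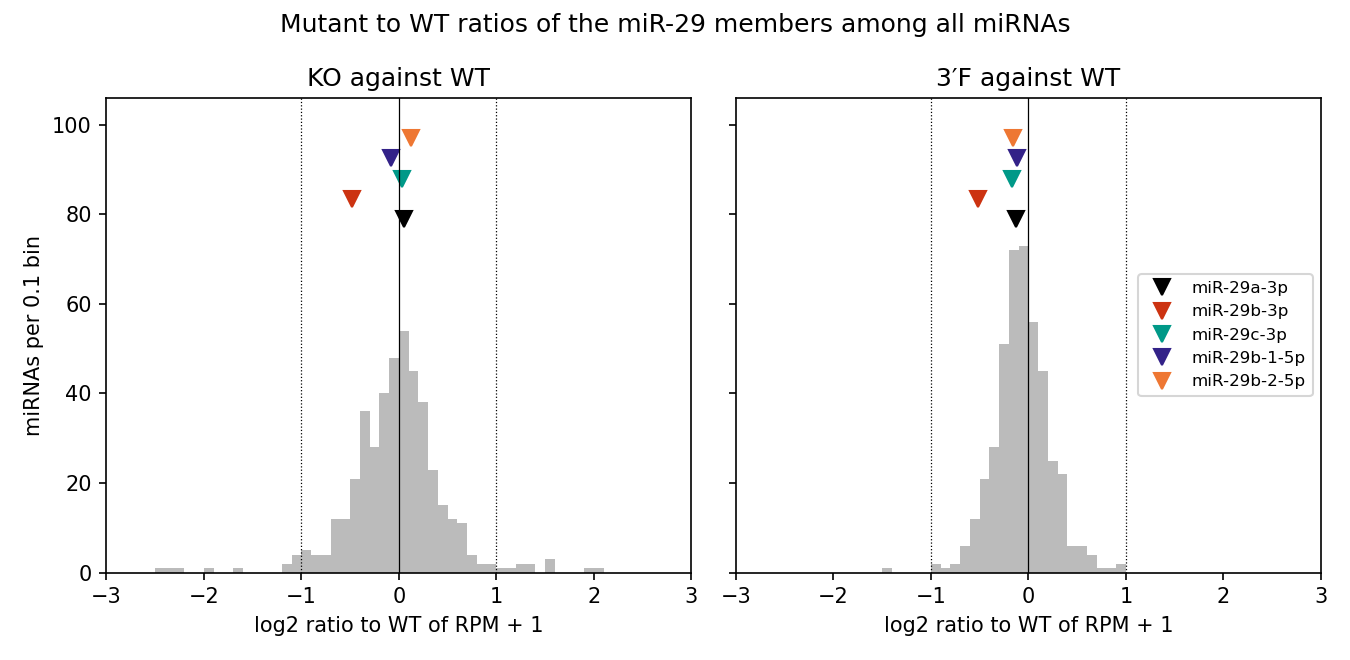
log2 ratio to WT of RPM + 1 for the 439 miRNAs with a mean of at least 1 RPM (gray bars, number per 0.1 bin) in KO and 3′F, with the 5 members as triangles placed above the bars and dotted lines at 2-fold; miR-146a-5p and the 3′F miRNA fall outside the axis where their ratios exceed 3 in size. miR-29b-3p is the member farthest to the left in both panels, at -0.48 and -0.52, and the other 4 sit between -0.17 and 0.13.

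Relative to miR-29a-3p in the same library, miR-29b-3p and miR-29c-3p differed in how steady they were. These ratios do not depend on the scaling of the libraries. miR-29b-3p, over both lines, was 6.21% of miR-29a-3p (WT A), 4.59% (WT B), 3.67% (KO) and 4.03% (3′F). Its counting intervals were 5.88% to 6.56%, 4.26% to 4.94%, 3.44% to 3.91% and 3.75% to 4.32%. WT A stood apart, KO was below both WT libraries, and 3′F and WT B overlapped. miR-29c-3p was 0.759%, 0.713%, 0.730% and 0.706% of miR-29a-3p, and all 4 intervals overlapped. The range of miR-29c-3p over miR-29a-3p was thus within counting error. These strands differ by 1 base, and the fractional counts given below show that reads were divided among the lines of the family. How far miR-29a-3p reads enter the miR-29c-3p counts, and so steady this ratio, was not tested. The erythroid and stromal sums and the lymphoid marker given above were also below both WT libraries in both mutants. So was the myeloid marker miR-142a-3p, at 1721 (WT A), 1121 (WT B), 1115 (KO) and 1071 RPM (3′F). The myeloid sum and the stromal marker miR-199a-3p lay between the WT libraries in both mutants. The endothelial sum was above both WT libraries in KO and between them in 3′F. The part of any of these in the lower miR-29b-3p was not tested. In bulk cultures, fewer cells of a type and less RNA per cell cannot be told apart.

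**Figure D3:**
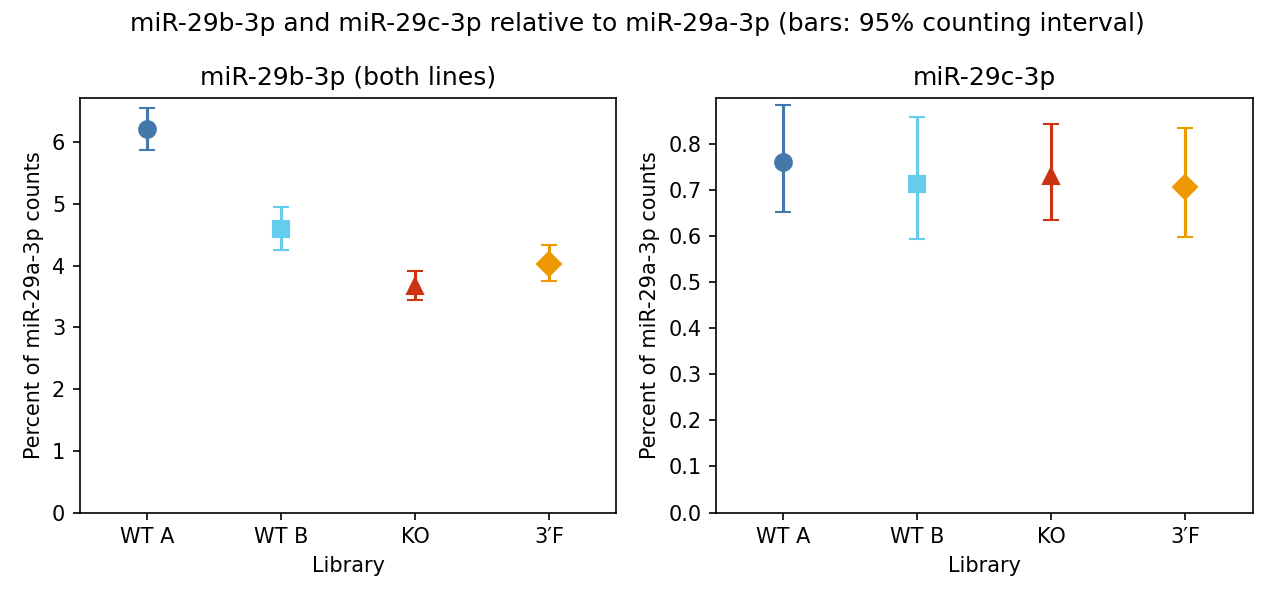
Counts of miR-29b-3p (both lines, left) and miR-29c-3p (right) as a percent of the counts of miR-29a-3p in the same library, with 95% counting intervals. miR-29b-3p falls between 3.67% (KO) and 6.21% (WT A), whereas miR-29c-3p stays between 0.706% and 0.759%.

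As shares of the family's 3p counts, miR-29a-3p took 93.5% (WT A), 94.97% (WT B), 95.8% (KO) and 95.5% (3′F). miR-29b-3p took 5.80%, 4.36%, 3.52% and 3.85%, and miR-29c-3p 0.710%, 0.677%, 0.700% and 0.674%. The share of miR-29b-3p was lower in both mutants than in both WT libraries, with counting intervals of 3.30% to 3.74% in KO and 3.59% to 4.12% in 3′F against 4.06% to 4.68% in WT B. The 3′F and WT B intervals overlapped slightly.

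The deposited counts show how reads of these near-identical strands were divided. miR-29a-3p had 21992.67 (WT A), 15753 (WT B), 26313.17 (KO) and 19772.67 (3′F) counts. The miR-29b-3p line of mir-29b-1 had 681.17, 360.83, 481.83 and 398.33 counts, and that of mir-29b-2 had 684.17, 361.83, 483.83 and 398.33. The lines differed by 3, 1, 2 and 0 counts. Summed with miR-29c-3p, the 4 lines gave 23525.01, 16587.99, 27471 and 20709, each a whole number within 0.02. The sum with only 1 of the miR-29b-3p lines was 22843.84, 16227.16, 26989.17 and 20310.67, in no library whole. The fractions thus closed within these 4 lines and not without the second miR-29b-3p line, so a read appears to be divided between the lines rather than counted in full on each. The sum of both lines, with a WT mean of 71.6 ± 11.8 RPM (SD, n = 2 cultures), was used for shares within the family and for strand use, whereas the level, ratios, ranks and calls of miR-29b-3p given above are those of the mir-29b-2 line alone. The log2 ratios of the sum were -0.48 (KO) and -0.52 (3′F), as for that line.

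The strand most often counted was not the same for every hairpin. Of the mir-29a counts, miR-29a-3p made up 99.5% (WT A), 99.7% (WT B), 99.8% (KO) and 99.6% (3′F). Its opposite strand, miR-29a-5p, had 110, 51, 50 and 73 counts, or 6.44, 4.47, 2.62 and 4.51 RPM. KO was lowest in miR-29a-5p, with a log2 ratio of -0.82 against -0.44 for WT B over WT A. Its counting interval, 1.99 to 3.45 RPM, slightly overlapped that of WT B, 3.40 to 5.88. It did not overlap that of WT A, 5.35 to 7.76, or that of 3′F, 3.59 to 5.67.

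For the mir-29b hairpins together, the 3p share was 88.6% (WT A), 83.2% (WT B), 81.5% (KO) and 82.8% (3′F). WT A was the highest, and the intervals of the other 3 libraries overlapped. The side of the miR-29b 5p strands differed from that of miR-29b-3p except in 1 case. miR-29b-1-5p lay between the WT libraries in both mutants, and miR-29b-2-5p lay above both WT libraries in KO but below both in 3′F, the side on which miR-29b-3p lay. Of the counts of both 5p strands, miR-29b-1-5p made up 61.7% (WT A), 65.1% (WT B), 59.5% (KO) and 64.5% (3′F). The intervals all overlapped but were wide, such as 52.8% to 65.7% in KO and 57.0% to 72.3% in WT B. A moderate shift would therefore not be seen.

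In mir-29c the 5p strand was counted more often than the guide strand in 3 of 4 libraries. miR-29c-5p was at 13.1 RPM (WT A), 14.5 (WT B), 9.59 (KO) and 13.9 (3′F), from 165 to 225 counts. KO was the lowest, and its counting interval, 8.30 to 11.1 RPM, overlapped none of the others. The 3p share of mir-29c was 42.8% (interval 38.0% to 47.8%) in WT A, 40.5% (34.9% to 46.4%) in WT B, 51.2% (46.2% to 56.2%) in KO and 38.3% (33.5% to 43.4%) in 3′F. KO was the highest, and its interval overlapped those of WT A and WT B but not that of 3′F. These shares rest on the miR-29c-3p counts, and how far reads of miR-29a-3p enter those was not tested. For miR-29c-5p the log2 ratio was -0.48 (KO) and 0.014 (3′F), against 0.14 between WT B and WT A, while that of miR-29c-3p in KO was 0.034.

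**Figure D4:**
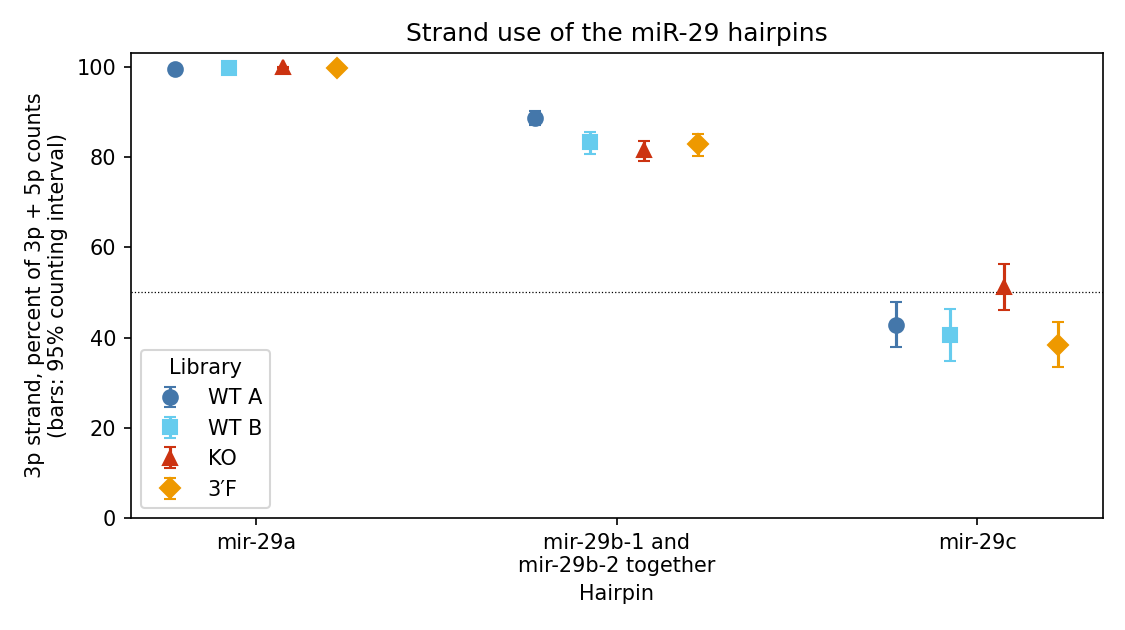
Share of the 3p strand among the 3p and 5p counts of the mir-29a hairpin, the mir-29b hairpins together and the mir-29c hairpin in each library, with 95% counting intervals and a dotted line at 50%. The share is above 99% for mir-29a, between 81.5% and 88.6% for mir-29b, and under 50% for mir-29c in all libraries but KO (51.2%).

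The miRNAs whose levels across the 4 libraries were most like those of the members were found among the 249 other miRNAs with a mean of at least 10 RPM. Likeness was the root mean square distance between log2(RPM + 1) values centered on the WT mean. For miR-29a-3p they were miR-378a-3p (distance 0.022), let-7j (0.027) and miR-26b-5p (0.031). For miR-29b-3p they were miR-18a-5p (0.075), miR-32-5p (0.10) and miR-7b-5p (0.10). miR-18a-5p held 34.2 RPM (WT A), 28.3 (WT B), 21.2 (KO) and 19.5 (3′F). That it was lowest in the mutants follows from its choice by likeness to miR-29b-3p over these libraries. With only 4 libraries, such likeness is a description.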

How the data were processed

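Small RNA libraries of resting BMDMs were analyzed, 2 WT, 1 KO and 1 3′F. The submitters' processing notes name cutadapt 1.8.3. The authors deposited estimated counts, some of them fractional, and beside them RPM, the count per 1000000 of the library's total over every line. All sample columns were used. The aligner, counter, build and miRNA release are not given in the sources used here. RPM were used as deposited, with the line of highest summed count for each mature miRNA. The family sum, shares and strand use were taken from counts over both miR-29b-3p lines. Intervals of shares and levels are 95% Wilson intervals, and those of ratios between strands are normal on the log scale. Reads are not independent molecules. A call required a mean of at least 10 (or 1) RPM and 2-fold from both WT libraries, with a pseudocount of 1 RPM. The functions were tested on simulated libraries.

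Members and lists were chosen with earlier results of these data known. The miRNAs named are the 5 members, the other strands of their hairpins, miR-146a-5p, and the 3 miRNAs most like miR-29a-3p and miR-29b-3p each. The marker lists came from general knowledge and were not checked against a source. The alternatives tried were scaling by 1 line per miRNA, by edgeR's TMM or, after rounding the counts, by DESeq2's size factors, a pseudocount of 0.1, expression minimums of 1 and 100 RPM, 1.5-fold, each WT library left out, and other handling of the miR-29b-3p lines. Sequences come from RefSeq on GRCm38.p6 and annotation from GENCODE vM21. Scaling factors came from edgeR 4.0.16 and DESeq2 1.42.0 under R 4.3.3. All else ran in Python 3.11.15 (pandas 2.3.3, numpy 2.4.6, matplotlib 3.10.9, scipy 1.17.1). Other assays of the study were not analysed here.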

Additional observations from a re-analysis of the deposited data

Results flagged for a closer look

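For 2 members the KO and 3′F libraries lay on opposite sides of both WT libraries. miR-29c-3p was above both in KO and below both in 3′F, a log2 difference of 0.20 (KO minus 3′F), and with edgeR's TMM its KO value fell between the WT libraries. miR-29b-2-5p showed the same arrangement, with a difference of 0.29. The difference was not tested in either case, and the counting intervals of KO and 3′F overlapped in both.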

How the results depend on the processing

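No paired analysis was possible because each mutant is a single library and shares only the letter A with WT. In KO, DESeq2's size factors moved the log2 ratio of miR-29a-3p to 0.13, that of miR-29c-3p to 0.10 and that of the family sum to 0.10, and RPM over 1 line per miRNA moved that of miR-29c-3p to 0.047. In 3′F, the ratio of miR-29c-3p became -0.11 with either edgeR's TMM or DESeq2's size factors and -0.18 with a pseudocount of 0.1, and that of the family sum -0.084 with TMM and -0.087 with DESeq2. The ratios of miR-29c-3p were judged against a very small difference between its WT values. The ratios of miR-29b-3p moved by less than the WT spread under every alternative run, and leaving out WT A or WT B gave -0.64 to -0.31 in KO and -0.68 to -0.35 in 3′F. Values that lay between the WT libraries changed sign with the library dropped, which follows by definition: in KO the family sum went from -0.014 (WT A dropped) to 0.063 (WT B dropped), miR-29a-3p from -0.0021 to 0.098 and miR-29b-1-5p from -0.25 to 0.097, and in 3′F miR-29b-1-5p went from -0.29 to 0.054.

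With 1 line for miR-29b-3p, its share of the family became 2.99% (WT A), 2.23% (WT B), 1.79% (KO) and 1.96% (3′F), and that of miR-29a-3p 96.3%, 97.1%, 97.5% and 97.4%, because only 1 of its 2 lines is then counted. For the hairpins taken singly, each with its own line, the 3p share in the same order was 86.3%, 79.2%, 78.7% and 78.8% for mir-29b-1. For mir-29b-2 it was 91.1%, 87.6%, 84.5% and 87.1%. The 3p strand of both hairpins has the same sequence, and its reads were divided almost evenly between the lines. The gap between the hairpins therefore follows their 5p counts, such as 108 and 67 in WT A, and does not show a difference in strand use.

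Of miRNAs called in KO there were 9, and 17 when 1 RPM sufficed, 3 when 100 RPM was asked for, 27 at 1.5-fold, and 13 (without WT B) to 15 (without WT A) when a WT library was dropped. For 3′F the number, 2, became 1 with a minimum of 100 RPM and 6 at 1.5-fold, and ranged from 2 (WT A dropped) to 5 (WT B dropped). For these ratios and numbers the cause was not tested. Another 82 alternative values stayed within the spread or interval used to judge them.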

Other observations

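The 5p strands were also summed by locus, since the hairpins of a pair lie close together. On chromosome 6, miR-29a-5p and miR-29b-1-5p together were at 12.8 RPM (WT A), 12.8 (WT B), 9.46 (KO) and 11.1 (3′F). On chromosome 1, miR-29b-2-5p and miR-29c-5p together were at 16.99, 18.9, 14.3 and 17.5 RPM. KO was the lowest library for both pairs, with log2 ratios to WT of -0.40 and -0.31. The summed guide strands in KO lay between the WT libraries. The lower sums came from miR-29a-5p, at 2.62 RPM in KO, and miR-29c-5p, at 9.59 RPM, each below both WT libraries. Their partners were not lower: miR-29b-1-5p, at 6.84 RPM in KO, lay between the WT libraries and miR-29b-2-5p, at 4.66 RPM, above both. The sums therefore do not show a fall of both hairpins of a pair. These sums rest on 146 to 290 counts a library, and no test was applied.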
